A study of Mus musculus with 21 samples.

Results

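The genes described here encode aldehyde and alcohol dehydrogenases of the liver: Aldh1a1, Aldh1a7, Aldh1b1, Aldh2, Aldh3a2, Aldh1l1, Aldh8a1, Aldh9a1, Adh1 and Adh4. They were taken by gene name from the arrays' annotation, and these 10 were all among the 19718 genes tested. Each was represented by 1 probe and 1 spot per array, so no gene had a second probe to set beside the first. The study compared livers of adult male C57BL/6J mice fed a high-fat diet with quercetin, a plant flavonoid, at 0.33% of diet weight (HF-Q, 10 mice) with livers of mice fed the same high-fat diet without it (HF, 11 mice). All mice had first spent 3 weeks on a normal-fat diet and then ate the experimental diets for 12 weeks, and all were fasted for 2 to 4 h before tissue was taken. RNA of each liver carried Cy5 and was hybridised against a Cy3-labelled pool of all samples, so each value below is a log2 ratio of 1 liver to that pool. The comparison asks how added quercetin affects hepatic gene expression on a high-fat diet.

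Alcohol dehydrogenases oxidise alcohols, ethanol and retinol among them, to aldehydes, and aldehyde dehydrogenases oxidise aldehydes to acids. Liver holds much of the body's capacity for both steps. Different members act on acetaldehyde, retinal, long-chain fatty aldehydes, or on intermediates of folate, tryptophan and carnitine metabolism, and several aldehyde dehydrogenases also clear aldehydes that form when lipids are oxidised.

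Aldh1a1 and Aldh1a7 are closely related cytosolic enzymes, and their genes were 1 of 3 pairs among the 10 whose levels correlated across livers by both measures used (given below). For these reasons the 250 bases upstream of their annotated starts are shown, as RefSeq gives them on GRCm38.p6, at chr19:20601718-20601967 on the plus strand for Aldh1a1 and chr19:20727557-20727806 on the minus strand for Aldh1a7. Capitals mark a run of 65 identical bases.
Aldh1a1: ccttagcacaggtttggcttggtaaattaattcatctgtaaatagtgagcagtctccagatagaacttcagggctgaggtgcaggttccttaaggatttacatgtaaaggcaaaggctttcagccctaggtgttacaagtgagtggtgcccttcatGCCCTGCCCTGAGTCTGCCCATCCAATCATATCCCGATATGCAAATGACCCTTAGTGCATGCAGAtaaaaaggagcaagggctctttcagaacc
Aldh1a7: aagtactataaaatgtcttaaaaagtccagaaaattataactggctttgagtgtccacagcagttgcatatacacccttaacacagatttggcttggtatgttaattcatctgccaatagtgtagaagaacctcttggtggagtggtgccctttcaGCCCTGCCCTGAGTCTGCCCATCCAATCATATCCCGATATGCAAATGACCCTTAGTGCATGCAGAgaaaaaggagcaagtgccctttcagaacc
The run reached from 94 to 30 bases upstream of the start. Of the 100 bases nearest the start 94 were identical, against 51.6% of all 250 aligned without gaps. Another annotated start of Aldh1a1 shared no run longer than 8 bases with Aldh1a7, and the next-longest run between promoters of 2 different members was 13 bases.

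Inside the capitals, both promoters hold CCAAT at 72 to 68 and the octamer ATGCAAAT at 56 to 49 bases upstream, searched on both strands. CCAAT occurred in 33.9% and ATGCAAAT in 1.6% of 32851 RefSeq mouse promoters of the same length. The octamer also occurred upstream of Aldh8a1, and CCAAT upstream of Adh4, Aldh1l1, Aldh3a2 and Aldh9a1. The promoter table held 9 of the 10 genes, all but Aldh2.

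Because the pair is similar in sequence, the probes were compared as well. The stretches below lie within the 2 probes, at chr19:20717788-20717817 (plus strand) for Aldh1a1 and chr19:20767583-20767612 (minus strand) for Aldh1a7 of build NCBI37, and capitals mark the longest run the probes share, 8 bases.
Aldh1a1: ccctcagtgacTCCTTGAAgtactcaccac
Aldh1a7: tTCCTTGAActatgtaccatgcatgataac
No pair among the 10 probes shared a longer run. The probes were compared with each other and not with the other gene's transcript, so the run does not show whether either binds it. Cross-hybridisation itself was not measured.

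The arrays lay on 3 slides, each scanned at its own time. There were 4 HF-Q and 3 HF arrays on slide 1, 2 HF-Q and 4 HF arrays on slide 2, and 4 of each on slide 3. An array's Cy5 channel had 44.2% to 51.3% of its probes well above background, and the number of arrays limits the precision. All 4 hepatocyte markers were well above background on all 21 arrays. Their mean log2 ratio was lowest in HF-Q replicate 10, at 0.090. It was 0.30 to 0.54 in the other HF-Q livers and 0.23 to 0.55 in HF livers. Markers of pancreatic acinar cells stood apart in HF replicates 5 and 11, both on slide 1: the mean log2 ratio of the 4 measured markers was 1.84 and 2.51 there, against -0.98 to -0.16 in HF-Q livers and -1.09 to -0.45 in the other HF livers. These 2 livers held the highest and the lowest Aldh1a1 ratio of all 21. With both left out, a check chosen after seeing the data, each of the 10 genes kept its direction. In whole liver, fewer cells of a type and less RNA per cell cannot be told apart.

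All 10 genes were well above background in Cy5 on 21 of 21 arrays, and none of their spots was saturated. Spots marked as uneven were left out: 3 of 210, for Adh1 in HF-Q replicate 10 and HF replicate 11, and for Aldh1l1 in HF-Q replicate 10. In HF-Q replicate 10 the spots left out had the lowest unprocessed Cy5 intensity of their genes, at 114398 for Adh1 and 65269.5 for Aldh1l1. Levels of different probes are not compared, since probes differ in how well they hybridise. Liver RNA was in Cy5 on every array, so a gene's offset from the pool cannot be told apart from a dye effect.

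All 10 genes had a lower mean log2 ratio in HF-Q than in HF livers when normalised by loess, although 4 of them (Aldh1a7, Aldh8a1, Aldh9a1 and Adh1) were slightly higher when each array was centred on its median instead, and Aldh9a1 was level in the authors' deposited table (0.0025). The log2 fold changes, HF-Q minus HF, lay between -0.21 for Aldh1a1 and -0.036 for Aldh9a1, and their median was -0.087, against -0.0045 over all genes tested. Over all genes tested 53.1% had a fold change below 0. Among the 5182 genes at least as bright as the dimmest of the 10, that share was 55.7%. With median centring the median of the 10 was -0.012 against 0.023 for all genes, and 34.4% of all genes and 21.7% of the bright genes were below 0.

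None of the 10 passed limma's moderated test with Benjamini-Hochberg adjustment over 19718 genes at a threshold of 0.05. Neither did any other gene, 0% of those tested, with 0.381 the smallest adjusted p of all. Of the 10, Aldh1a1 and Aldh3a2 had an unadjusted p under 0.05, that is 2 genes, both lower in HF-Q. Of all genes tested 5.95% had such a p, 2.94% lower in HF-Q and 3.01% higher, and 4.28% of the bright genes were lower with such a p. For no member did the groups separate without overlap, which held for 0.00507% of all genes tested. On slides 1, 2 and 3 alone, 9, 8 and 9 of the 10 genes were lower in HF-Q. Of all genes tested on those slides 51.3%, 52.1% and 51.0% were lower. On all 3 slides 6 of the 10 were lower, and the share of all genes that were was not computed.

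**Figure D1:**
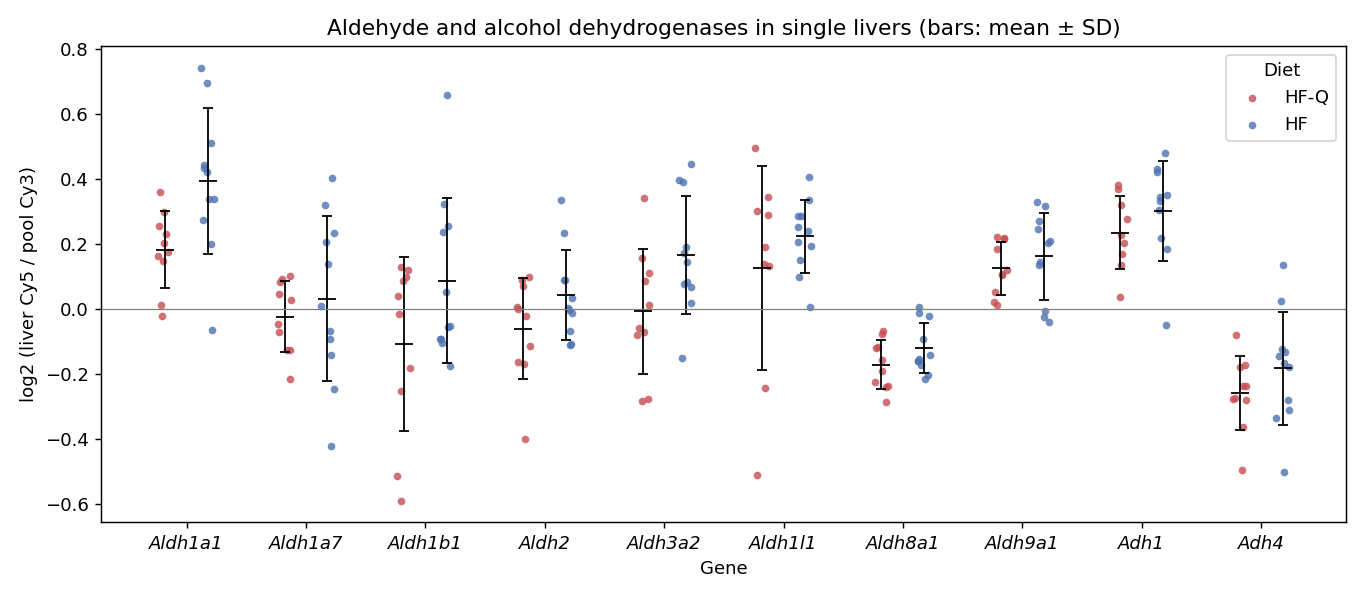
Log2 ratio of each liver to the pool (y axis) for the 10 genes (x axis), with HF-Q livers in red to the left of HF livers in blue; bars are mean ± SD of 10 HF-Q and 11 HF livers (9 for Aldh1l1 in HF-Q, 9 and 10 for Adh1). The 10 HF-Q livers of Aldh1a1 lie below the HF median of 0.42, and the groups overlap for every gene.

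Aldh1a1, which oxidises retinal to retinoic acid in the cytosol, had the largest difference among the 10 in loess-normalised ratios of all arrays fitted without a block. With slide as a fixed block Aldh1b1 was -0.22 and Aldh1a1 -0.21, and on slides 1 and 2 alone other members differed more than Aldh1a1. Aldh1b1 differed more than Aldh1a1 with median centring (-0.16), in the Cy5 channel alone (-0.23), in the scanner's processed signals (-0.21) and, narrowly, in the authors' deposited table. Aldh3a2 (-0.19) and Aldh2 (-0.14) also did in Cy5 alone, and Aldh3a2 was level with Aldh1a1 with median centring (-0.13 each). The Aldh1a1 log2 ratio was lowest at -0.021, with a median of 0.19 and a highest value of 0.36 in HF-Q livers, and the same 3 values were -0.064, 0.42 and 0.74 in HF livers. All 10 HF-Q livers lay below the HF median and 6 of 11 HF livers above every HF-Q liver, while HF replicate 11 was the lowest of all. The means were 0.18 ± 0.12 in HF-Q and 0.39 ± 0.22 in HF livers (SD, n = 10 and 11). The log2 fold change was -0.21 ± 0.075 (SE; 95% interval -0.37 to -0.057), a level 13.7% lower in HF-Q. It did not pass over all genes (limma adjusted p = 0.768, unadjusted p = 0.00958). On slides 1, 2 and 3 it was -0.14, -0.13 and -0.31. With median centring it was -0.13, as it was when the Cy5 channel was used without the pool. Without the 2 livers high in acinar markers it was -0.22. Its probe lies on chromosome 19 at 20717764 to 20717823.

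Aldh1a7, a rodent relative of Aldh1a1, had no difference in level beyond its error but differed in scatter. Its log2 ratio had a lowest value of -0.22, a median of -0.0097 and a highest value of 0.10 in HF-Q livers, against -0.42, 0.0093 and 0.41 in HF livers. The HF-Q livers sat inside the HF range: 5 HF livers lay above all of them and HF replicates 2 and 11 below all of them. The SD was 0.11 in HF-Q and 0.25 in HF livers, and the difference in spread was not tested. Its log2 fold change was -0.055 ± 0.082 (SE, limma adjusted p = 0.991), with -0.082, 0.0076 and -0.041 on slides 1, 2 and 3 and 0.012 with median centring. Its probe lies on the same chromosome at 20767553 to 20767612.

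Aldh2 and Aldh1b1 are related mitochondrial enzymes that oxidise acetaldehyde, the product of alcohol dehydrogenase acting on ethanol. Aldh2 had a lowest log2 ratio of -0.40, a median of -0.011 and a highest value of 0.099 in HF-Q livers, against -0.11, 0.0025 and 0.33 in HF livers. The lowest HF-Q value was that of replicate 7, and 4 HF-Q livers lay below every HF liver. Between diets Aldh2 had a log2 fold change of -0.10 ± 0.062 (SE, limma adjusted p = 0.897). Slides differed in direction for this gene: it was -0.33 on slide 1, 0.15 on slide 2 and -0.11 on slide 3. With median centring it was -0.039. The 60 bases of its probe map across 554 positions of chromosome 5, at 122022137 to 122022690.

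For Aldh1b1 the lowest, median and highest log2 ratios were -0.59, 0.012 and 0.13 in HF-Q livers, against -0.18, -0.053 and 0.66 in HF livers. The medians of the 2 groups were thus in the opposite order to the means, which were -0.11 ± 0.27 in HF-Q and 0.087 ± 0.25 in HF livers (SD, n = 10 and 11). Single livers carried much of the spread: HF-Q replicates 7 and 9 stood at -0.59 and -0.51, and HF replicate 3 at 0.66. Aldh1b1 had a log2 fold change of -0.19 ± 0.11 (SE, limma adjusted p = 0.869, unadjusted p = 0.0770), with -0.25, -0.24 and -0.18 on slides 1, 2 and 3. Without HF replicate 3 it was -0.14. The gene's residual SD was larger than that of 93.9% of genes tested. Its probe lies on chromosome 4 at 45816960 to 45817019.

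Aldh3a2 encodes the fatty aldehyde dehydrogenase of the endoplasmic reticulum and peroxisomes, whose loss in humans causes Sjögren-Larsson syndrome. Its log2 ratio had a lowest value of -0.28, a median of -0.024 and a highest value of 0.34 in HF-Q livers, against -0.15, 0.14 and 0.45 in HF livers. Of the HF livers 10 of 11 lay above the HF-Q median and above the pool, and 8 of 10 HF-Q livers lay below the HF median, so the groups overlapped. The means were -0.0068 ± 0.19 in HF-Q and 0.17 ± 0.18 in HF livers (SD, n = 10 and 11). A log2 fold change of -0.17 ± 0.077 (SE; 95% interval -0.33 to -0.015), or 11.3% lower in HF-Q, followed from them and did not pass over all genes (limma adjusted p = 0.807, unadjusted p = 0.0337). It was -0.25, -0.10 and -0.19 on slides 1, 2 and 3. Its probe lies on chromosome 11 at 61062365 to 61062424.

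**Figure D2:**
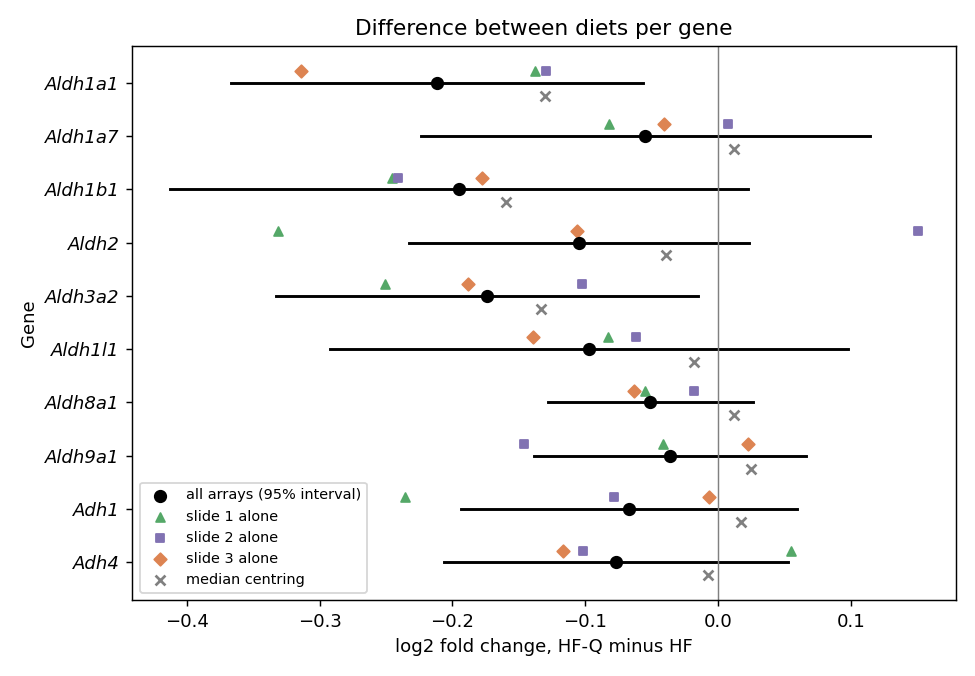
Log2 fold change, HF-Q minus HF (x axis), of each gene (y axis) in all arrays with its 95% interval (black), on each slide alone (coloured) and after median centring (grey crosses). The intervals of Aldh1a1 and Aldh3a2 lie below 0, and with median centring Aldh1a7, Aldh8a1, Aldh9a1 and Adh1 lie above 0.

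Aldh1l1, Aldh8a1 and Aldh9a1 act inside single pathways. Aldh1l1, the formyltetrahydrofolate dehydrogenase that releases formate units from folate as carbon dioxide, had a lowest log2 ratio of -0.51, a median of 0.19 and a highest value of 0.50 in 9 HF-Q livers, against 0.0050, 0.24 and 0.41 in 11 HF livers. HF-Q replicates 7 and 9, at -0.51 and -0.24, were the only measured livers below the pool, and the other measured HF-Q livers ranged from 0.13 to 0.50. The SD was 0.31 in HF-Q and 0.11 in HF livers, the reverse of the order seen for Aldh1a7. The log2 fold change was -0.097 ± 0.094 (SE, limma adjusted p = 0.976), with -0.083, -0.062 and -0.14 on slides 1, 2 and 3, and -0.018 without HF-Q replicate 7 or with median centring. The probe maps to chromosome 6 at 90549091 to 90549150.

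HF-Q replicate 7 was the lowest measured liver for Aldh1b1, Aldh2 and Aldh1l1. It was also the lowest for the mean of 7 pericentral hepatocyte markers, at -0.48, against -0.088 to 0.17 in the other HF-Q livers and -0.11 to 0.27 in HF livers. Over all livers 5 of these 7 markers were lower in HF-Q, with a median log2 fold change of -0.062, whereas 2 of 6 periportal markers were lower, with a median of 0.0059. With median centring 4 of 7 pericentral and 1 of 6 periportal markers were lower, at medians of -0.038 and 0.066. Of all genes tested 53.1% were lower, and 34.4% with median centring. No marker in these lists had an unadjusted p under 0.05. The part of zonation in the values of the dehydrogenases was not tested.

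Aldh8a1, an enzyme of tryptophan breakdown through kynurenine, was the most even of the 10. Its lowest, median and highest log2 ratios were -0.29, -0.17 and -0.068 in HF-Q livers, against -0.22, -0.16 and 0.0050 in HF livers. All HF-Q livers and 10 of 11 HF livers lay below the pool. Only 8.19% of genes tested had a smaller residual SD. Between diets it had a log2 fold change of -0.051 ± 0.037 (SE, limma adjusted p = 0.958; 95% interval -0.13 to 0.027), with -0.055, -0.018 and -0.063 on slides 1, 2 and 3 and 0.012 with median centring. The probe maps to chromosome 10 at 21116106 to 21116165.

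Aldh9a1, which makes the precursor of carnitine from trimethylaminobutyraldehyde, had a lowest log2 ratio of 0.011, a median of 0.11 and a highest value of 0.22 in HF-Q livers, against -0.040, 0.20 and 0.33 in HF livers. Every HF-Q liver lay inside the HF range. Its difference between diets was a log2 fold change of -0.036 ± 0.049 (SE, limma adjusted p = 0.989). It was -0.041, -0.15 and 0.023 on slides 1, 2 and 3, and 0.025 with median centring. The probe maps to chromosome 1 at 169298245 to 169298304.

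The mean log2 ratios of the alcohol dehydrogenases stood on opposite sides of the pool, an offset not separated from dye, and differed little between diets. Adh1, the class I enzyme and the main ethanol-oxidising dehydrogenase of liver, had a lowest log2 ratio of 0.038, a median of 0.23 and a highest value of 0.38 in 9 HF-Q livers, against -0.049, 0.34 and 0.48 in 10 HF livers. All 9 HF-Q livers and 9 of 10 HF livers lay above the pool, the exception being HF replicate 1. The log2 fold change was -0.067 ± 0.061 (SE, limma adjusted p = 0.976). It was -0.24, -0.078 and -0.0065 on slides 1, 2 and 3, -0.11 without HF replicate 1, and 0.017 with median centring.

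Adh4, a class II alcohol dehydrogenase that also accepts retinol, had a lowest log2 ratio of -0.50, a median of -0.26 and a highest value of -0.079 in HF-Q livers, against -0.50, -0.17 and 0.14 in HF livers. All 10 HF-Q livers and 9 of 11 HF livers lay below the pool, and 9 of 10 HF-Q livers lay below the HF median. The log2 fold change was -0.077 ± 0.063 (SE, limma adjusted p = 0.970), with 0.055, -0.10 and -0.12 on slides 1, 2 and 3 and -0.0072 with median centring. The probes of Adh1 and Adh4 map to chromosome 3, at 137952821 to 137952880 and at 138093716 to 138093775.

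The Cy5 level itself, on a log2 scale after loess and scaling of the channels between arrays, averaged lower in HF-Q for all 10 genes on this scaling, and the groups' ranges overlapped for each. For Aldh1a1 it was 17.04 ± 0.12 in HF-Q and 17.17 ± 0.15 in HF livers, and for Aldh1a7 14.70 ± 0.11 and 14.75 ± 0.24 (SD, n = 10 and 11). Aldh1b1 had 10.91 ± 0.31 in HF-Q and 11.13 ± 0.27 in HF livers, and Aldh2 14.91 ± 0.16 and 15.05 ± 0.16. Aldh3a2 stood at 11.37 ± 0.21 in HF-Q and 11.55 ± 0.19 in HF livers, and Aldh1l1 at 16.36 ± 0.23 and 16.48 ± 0.093. For Aldh8a1 the level was 14.16 ± 0.062 in HF-Q and 14.23 ± 0.066 in HF livers, and for Aldh9a1 13.81 ± 0.10 and 13.84 ± 0.17. Adh1 had 17.02 ± 0.12 in HF-Q and 17.04 ± 0.14 in HF livers, and Adh4 14.89 ± 0.11 and 14.94 ± 0.17. Unprocessed Cy5 intensities ran from 1476 for Aldh1b1 to 245091 for Aldh1a1, above local backgrounds of at most 66.5.

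Averaged over the 10 genes, the log2 ratio of a liver had a lowest value of -0.17, a median of 0.020 and a highest value of 0.085 in HF-Q livers, against -0.056, 0.086 and 0.25 in HF livers. The lowest mean was that of HF-Q replicate 7 and the highest that of HF replicate 3. The group means were 0.0014 ± 0.077 in HF-Q and 0.11 ± 0.092 in HF livers (SD, n = 10 and 11), a description with no test, since members are not replicates. With spots left out, the mean of HF-Q replicate 10 covered 8 genes and that of HF replicate 11, the lowest HF liver, 9.

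Across livers the genes did not move as a single block. Pearson's r of the log2 ratios over 19 to 21 livers, computed for 45 pairs, ranged from -0.33 to 0.77 with a median of 0.20, and 37 pairs were above 0. These values share the array and the pool, which can move genes together. After permutation tests with 100000 resamples and Benjamini-Hochberg adjustment over the 45 pairs, 3 pairs passed by both Pearson's r and Spearman's rho. With diet group and slide subtracted, the median r of the 45 pairs was 0.098. Aldh1a1 then had 0.84 with Aldh1a7 and 0.57 with Aldh3a2, and Aldh1b1 had 0.77 with Aldh1l1. The subtracted values were not tested.

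Aldh1a1 and Aldh1a7, whose promoters share the run shown above, had r = 0.77 (permutation, adjusted p = 0.00292, n = 21) and rho = 0.64 (permutation, adjusted p = 0.0322). Without the 2 livers farthest from the Aldh1a1 median r was 0.61, and without the 2 livers high in acinar markers it was 0.65. Within groups it was 0.45 in HF-Q and 0.90 in HF livers, a difference that was not tested, and on slides 1, 2 and 3 it was 0.94, 0.29 and 0.73.

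Aldh1b1 and Aldh1l1 had r = 0.77 (permutation, adjusted p = 0.00292, n = 20) and rho = 0.69 (permutation, adjusted p = 0.0299). Without the 2 livers farthest from the Aldh1b1 median r was 0.68. It was 0.93 within HF-Q and 0.59 within HF livers, and 0.85, 0.011 and 0.86 on slides 1, 2 and 3, so the relation was not seen on slide 2. Aldh1a1 and Aldh3a2 had r = 0.66 (permutation, adjusted p = 0.0169, n = 21) and rho = 0.72 (permutation, adjusted p = 0.018). Without the 2 livers farthest from the Aldh1a1 median that r was 0.49, within HF-Q it was 0.29 and within HF livers 0.74, and on the slides it was 0.63, 0.84 and 0.71.

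**Figure D3:**
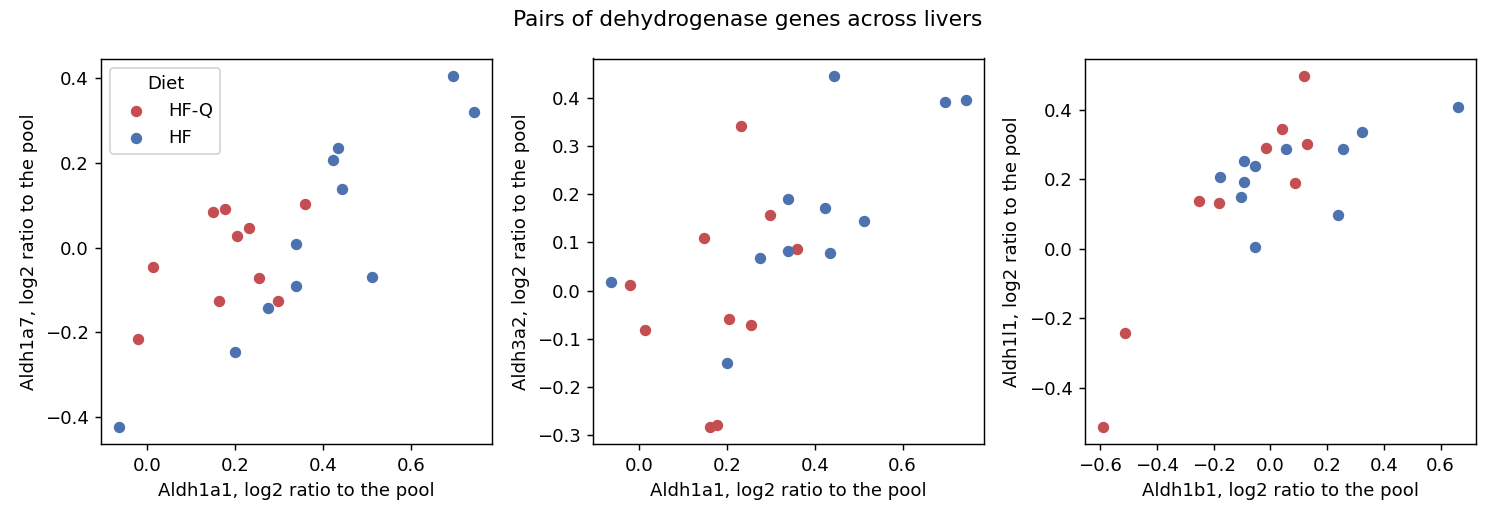
Log2 ratios to the pool of the 3 pairs of genes that passed the correlation tests, 1 point per liver (HF-Q red, HF blue; both axes in log2 units). In the right panel HF-Q replicates 7 and 9 lie at the lower left, at -0.59 and -0.51 for Aldh1b1 and -0.51 and -0.24 for Aldh1l1.

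No other pair passed by both measures. The r of Aldh1b1 with Aldh2 was 0.56, and 0.013 without the 2 livers farthest from the Aldh1b1 median. For Aldh2 with Aldh1l1 r was 0.60, and 0.16 without the 2 farthest livers. By contrast Aldh1a7 with Aldh3a2 had 0.53, and 0.49 without the 2 livers farthest from the Aldh1a7 median. These 3 pairs did not pass over the 45 (permutation, adjusted p = 0.0947 for Pearson's r of each). Aldh1a7 with Aldh9a1 had 0.47 (permutation, adjusted p = 0.168, n = 21), and 0.61 without the 2 farthest livers. Adh1 and Adh4 had r = 0.20 (permutation, adjusted p = 0.696, n = 19). The lowest r was that of Aldh1b1 with Adh4, at -0.33 (permutation, adjusted p = 0.507, n = 21).

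**Figure D4:**
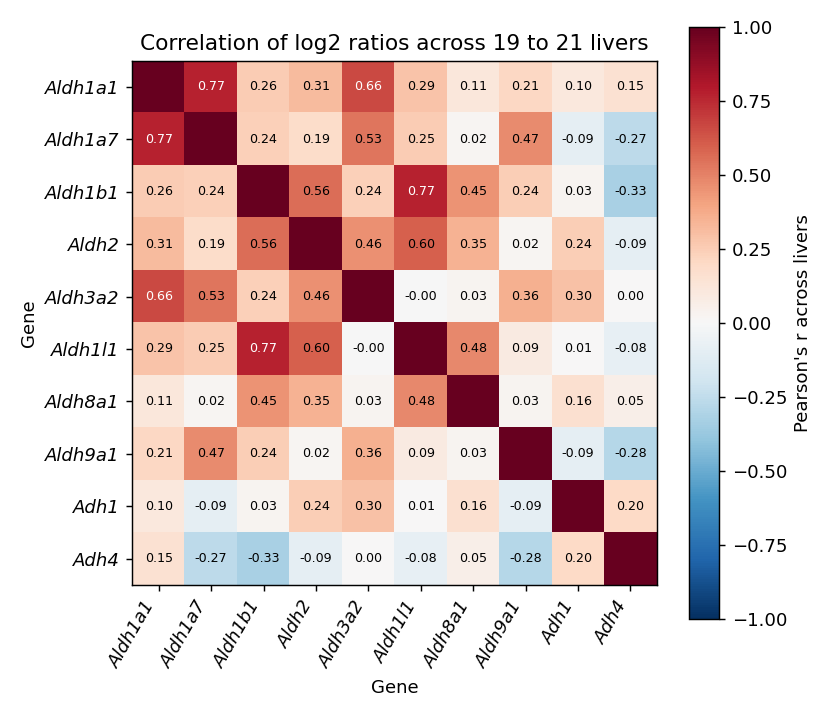
Pearson's r of log2 ratios across 19 to 21 livers for each pair of the 10 genes (rows and columns; colour scale from -1 to 1). Aldh1a1 with Aldh1a7 and Aldh1b1 with Aldh1l1 reach 0.77, and Adh1 and Adh4 stay at or below 0.30 with every other member.

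Each of the 10 genes had closer partners outside the group, as the highest of 19219 correlations will tend to be. Aldh1a1 was closest to Cpox, an enzyme of heme synthesis (r = 0.87), and Eci1, an isomerase of fatty acid oxidation (0.85), and 14 genes correlated with it more than Aldh1a7 did. Aldh1a7 was closest to Raet1e and Gfm1 (0.85 each). Aldh3a2 was closest to the lysosomal hexosaminidase gene Hexa (0.91) and Aldh2 to Uaca (0.83) and the lysosomal membrane gene Lamp1 (0.80).

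Aldh1l1 was closest to 2 mitochondrial enzyme genes, Mmut, the methylmalonyl-CoA mutase (0.89), and Aass, of lysine breakdown (0.88). Without the 2 livers farthest from the Aldh1l1 median these were 0.68 and 0.70. Aldh1b1 had a named partner in Car5a, a mitochondrial carbonic anhydrase (0.81). Aldh8a1 had one in Ncapd3 (0.73), Aldh9a1 in Ptpra and Bsdc1 (0.74 each), Adh1 in Ppp1r37 and Slc26a10 (0.85 each), and Adh4 in Dnaja2 (0.76) and Rundc3b (0.75). For Adh1 and Adh4, 3555 and 3996 genes correlated more highly than their closest member. Without the 2 livers farthest from the member's median, r was 0.58 for Aldh1b1 with Car5a, 0.58 for Aldh2 with Uaca and 0.64 for Aldh2 with Lamp1, and 0.62 to 0.88 for the other named partners of members besides Aldh1l1. These correlations are given without a p.

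Among 10 other measured aldehyde dehydrogenase genes, 9 were lower in HF-Q, with a median log2 fold change of -0.050, but 6 with median centring, at a median of -0.0016. Aldh4a1, of proline breakdown, was -0.10 ± 0.044 (SE, unadjusted p = 0.0316, limma adjusted p = 0.807). Aldh7a1, of lysine breakdown, stood at -0.090 ± 0.046, Aldh6a1, of valine breakdown, at -0.083 ± 0.049, and Aldh5a1, of GABA breakdown, at -0.056 ± 0.033. With median centring these 4 were -0.038, -0.016, -0.092 and -0.00053. The 2 retinal dehydrogenases besides Aldh1a1 had small measured differences: Aldh1a2 of -0.014 ± 0.054 and Aldh1a3 of -0.016 ± 0.056. The Aldh1a2 probe was well above background on 12 of 21 arrays, and that of Aldh1a3 on all 21. The background correction shrinks ratios of dim genes, so the small value of Aldh1a2 does not show that its level was unchanged.

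Of 3 other alcohol dehydrogenase genes measured, Adh7, the class IV enzyme of epithelia, was higher by 0.14 ± 0.042 (SE, unadjusted p = 0.00284, limma adjusted p = 0.736), 0.23, 0.091 and 0.13 on slides 1, 2 and 3. Its log2 ratio averaged -0.016 ± 0.046 in HF-Q and -0.16 ± 0.12 in HF livers (SD, n = 10 and 11). Its probe was well above background on 11 of 21 arrays, so it was a dim gene near the detection limit. Adh5, the class III enzyme that oxidises formaldehyde bound to glutathione, was 0.0065 ± 0.051 and Adhfe1 -0.046 ± 0.063.

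Genes of connected reactions were examined as lists, with 0 genes past the threshold over all genes in any of them. Of 19 retinoid genes, 11 were lower at a median of -0.017, but 6 with median centring, at a median of 0.034. Rdh10, which oxidises retinol to the substrate of Aldh1a1, was -0.11 ± 0.036 (SE, unadjusted p = 0.00486, limma adjusted p = 0.736). On the higher side, Cyp26b1, which degrades retinoic acid, was 0.60 ± 0.26 (unadjusted p = 0.0304) and Rdh11 0.28 ± 0.14 (0.0624). The retinoid list thus held single genes in both directions.

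For the acetaldehyde step, 3 of 5 genes of ethanol oxidation and acetate activation were lower, at a median of -0.030 (2 of 5 and 0.030 with median centring). Cyp2e1, the ethanol-oxidising cytochrome P450, was -0.18 ± 0.10 (SE) and the acetyl-CoA synthetase genes Acss3 and Acss2 were -0.17 ± 0.090 and 0.26 ± 0.16. Among 15 aldo-keto reductases, carbonyl reductases and aldehyde oxidases, which also act on aldehydes, 7 were lower at a median of 0.0084 (3 and 0.036 with median centring), with Akr1c14 at -0.15 ± 0.076 and Akr1b8 at 0.090 ± 0.052. For the supply of substrates to Aldh3a2, 4 of 5 genes of fatty alcohol, phytol and sphingoid base metabolism were lower at a median of -0.019 (1 of 5 and 0.034 with median centring), with Pecr at -0.077 ± 0.045 and Hacl1 at 0.16 ± 0.10. None of these 3 lists held a gene with an unadjusted p under 0.05.

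Around Aldh1l1, 13 of 16 genes of folate and one-carbon metabolism were lower, at a median of -0.043, but only 7 of 16 with median centring, at a median of 0.014. Ftcd, which passes formimino groups from histidine to folate, was -0.19 ± 0.069 (SE, unadjusted p = 0.0121, limma adjusted p = 0.768). Dmgdh and Folr1 stood at -0.12 ± 0.072 and -0.066 ± 0.046. The Folr1 probe was well above background on 10 of 21 arrays, so Folr1 was a dim gene near the detection limit.

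Around Aldh8a1, 6 of 9 genes of tryptophan and kynurenine breakdown were lower at a median of -0.016 (2 of 9 and 0.020 with median centring). Acmsd, whose enzyme makes the substrate of Aldh8a1, was higher by 0.22 ± 0.090 (SE, unadjusted p = 0.0244, limma adjusted p = 0.793), with 0.26, 0.15 and 0.25 on slides 1, 2 and 3, whereas Aldh8a1 itself was -0.051. Kmo was -0.11 ± 0.057 and Tdo2, the first enzyme of the pathway in liver, -0.097 ± 0.061. Around Aldh9a1, 3 of 4 genes of carnitine synthesis and transport were lower, at a median of -0.060 (2 of 4 and -0.011 with median centring). Bbox1, which carries out the last step of carnitine synthesis, was -0.097 ± 0.041 (unadjusted p = 0.0279, limma adjusted p = 0.807) and the carnitine carrier gene Slc25a20 -0.11 ± 0.056.

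In all, 57 of 86 measured genes of the 9 lists (66.3%) were lower in HF-Q, but only 30 of them (34.9%) with median centring, against 53.1% and 34.4% of all genes tested. At an unadjusted p under 0.05, 5 were lower and 4 higher, against 2.94% and 3.01% of all genes tested.

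**Figure D5:**
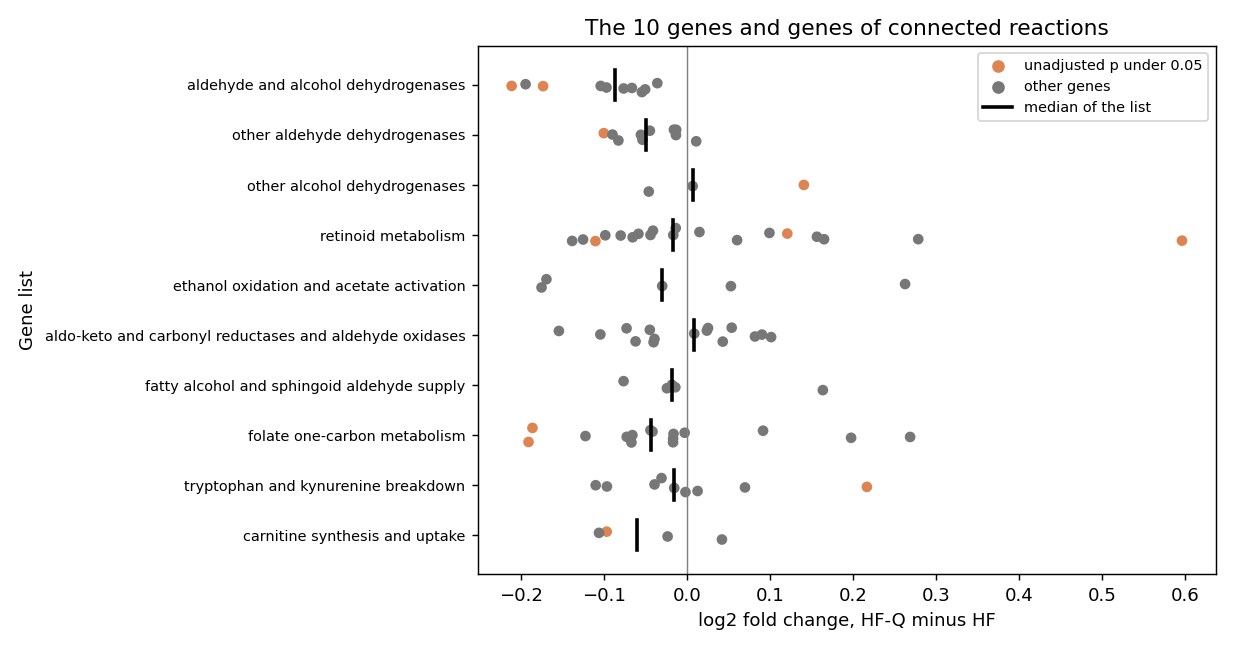
Log2 fold change, HF-Q minus HF (x axis), of the 10 genes (top row) and of genes in connected lists (rows below), 1 point per gene, with genes at an unadjusted p under 0.05 in orange and a black bar at each list's median. The 10 genes lie left of 0 with a median of -0.087, though 4 of them lie above 0 with median centring, and the widest list is retinoid metabolism, with Cyp26b1 at 0.60.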

How the data were processed

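Members and gene lists were chosen with earlier results of these data known. The labels give 24 mice, of which 21 arrays are analysed here. The authors deposited scanner output of each array, holding spot and local background intensity of both channels as scanned, and a processed intensity after background subtraction and dye normalization, per the file headers. The software was Agilent Feature Extraction 10.7.3.1 per the submitters' processing notes, and its flags mark spots that are saturated, uneven or well above background, per the file headers. A second deposited item is a table of log2 values in which every column median is 7.92. Its columns correlated with log2 Cy5 at 0.973 to 0.989 and with Cy3 at 0.970 to 0.982, and how it was centred is not stated, so it served as an alternative only.

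Background was corrected by normexp (offset 50), which draws ratios of dim genes toward 0, and log2 Cy5/Cy3 ratios were normalised by loess within arrays in limma 3.58.1 under R 4.3.3. Control, uneven and outlying spots were left out. Probes well above background in Cy5 on at least 10 of 21 arrays were kept (26291 of 55681), and a gene's brightest probe stood for it. The test of the diets was limma's moderated one (lmFit and eBayes), two-sided and without a block. Its p-values were adjusted after Benjamini and Hochberg over all 19718 genes, with a threshold of 0.05. Each array holds the liver of 1 mouse. Liver RNA was in Cy5 on every array, and 0 arrays were identical. The procedure was tested on simulated data. Alternatives changed the background correction, the scaling, the channel, the source of values, filters, variance model, weights and threshold, used slide or replicate number as a block, fitted slides alone and left out each array.

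All 10 genes are named, with up to 4 genes of lowest p per list and for each member the 2 genes of highest correlation; unnamed probes among those are not described, and some genes of the lists are not reported here. Aldh1a2 and Aldh1a3 were named after their values were seen. Symbols were updated through RefSeq accessions, and the array files gave the probes' coordinates (NCBI37).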

Additional observations from a re-analysis of the deposited data

How the results depend on the processing

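No member passed the adjusted threshold of 0.05, or 0.10, in any alternative run, the lowest adjusted p of a member being 0.345 (Aldh1a1). Aldh1a1, Aldh1b1, Aldh3a2 and Aldh1l1 were lower in HF-Q in every one of them. With median centring Aldh1a7 was 0.012, Aldh8a1 0.012, Aldh9a1 0.025 and Adh1 0.017, so 6 of the 10 genes were lower and 0 had an unadjusted p under 0.05. In the deposited table Aldh9a1 was 0.0025 and 0 members had such a p. On slide 1 alone Adh4 was 0.055, on slide 2 alone Aldh1a7 was 0.0076 and Aldh2 0.15 with 0 members at such a p, and on slide 3 alone Aldh9a1 was 0.023 with 1 member at such a p. Without both HF livers high in acinar markers, which was chosen after seeing the data, 1 member had such a p and the median was -0.076. The cause of these changes was not tested.

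With each array left out in turn all 10 genes stayed lower, the median ran from -0.11 to -0.066, and 1 to 3 members had an unadjusted p under 0.05. The count fell to 1, Aldh1a1 alone, without HF replicates 3, 5 or 7 or HF-Q replicates 2, 3, 6 or 7, and without HF replicate 1 Adh1 joined at -0.11. Of all 19718 genes, 896 (without HF-Q replicate 7) to 1547 (without HF-Q replicate 10) had such a p. Over these fits Aldh1a1 ran from -0.26 to -0.18, Aldh3a2 from -0.21 to -0.14, Aldh1b1 from -0.22 to -0.14 and Aldh1l1 from -0.14 to -0.018. With the replicate number as a block, over replicates 1 to 10 of both groups, the median was -0.10 and all 10 genes were lower. That median equals the one without HF replicate 11, the liver this block leaves out. No member passed with or without the block. No sign was found that the numbers pair the livers. Deviations of same-numbered livers from their group means correlated at -0.34 to 0.16, above 0.1 in 1 of 10 pairs, and 0 HF-Q livers were closest to their own number. A pairing that leaves little trace in expression would not be seen in this way. Slide and scan time coincide and were not separated, and saturation touched no member. A comparison among probes of a member could not be run, since each had 1. Signals of the 10 genes lay far above background, unlike that of Adh7. Whether the differences depend on signal level was not tested.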

Other observations

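For the genes closest to Aldh1a1, Aldh1a7, Aldh3a2 and Aldh1l1, Pearson's r within each diet group is given as a description only, since these genes were picked for a high correlation over all livers and the differences between groups were not tested. Aldh1a1 had r = 0.82 with Cpox within HF-Q and 0.86 within HF livers, whereas with Eci1 it had 0.26 within HF-Q and 0.91 within HF livers. Aldh1a7 had 0.51 with Raet1e within HF-Q and 0.96 within HF livers. The opposite order was measured for Aldh1l1, at 0.95 with Mmut within HF-Q and 0.72 within HF livers, and at 0.95 with Aass within HF-Q and 0.36 within HF livers. Aldh3a2 had 0.88 with Hexa within HF-Q and 0.93 within HF livers.

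Of markers of other cells, the neutrophil genes S100a9 and S100a8 had log2 fold changes, HF-Q minus HF, of 0.23 ± 0.11 and 0.20 ± 0.10 (SE, limma adjusted p = 0.840 and 0.863). The lymphocyte gene Cd3e, the third measured marker of that list, was -0.038 ± 0.045 (SE), or 0.0030 with median centring. The 4 Kupffer cell and macrophage markers measured had a median of 0.014, or 0.050 with median centring, and the 5 stellate cell markers one of -0.013, or 0.014 with median centring.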
